A study of Canis lupus familiaris with 8 samples.

Results

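A set of 38 genes of forebrain neurons and synapses was examined in messenger RNA from 2 dog glands. The genes were chosen by their measured values, because many of them were much higher in the stressed Chinese Field Dog pituitary than in the other libraries. Members were the rows whose gene symbol was on the list, and 34 of the 38 had such a row among the 24580 genes of the tables. VAMP2, CAMK2B, NEFL and VSNL1 were not analysed here.

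The libraries came from the pituitary and the adrenal cortex of adult Chinese Field Dogs and adult Beagles, a laboratory breed. In each breed and gland, 1 library was labelled as exposed to chronic stress and 1 as "non-disposal", read here as the unexposed control. That gave 8 libraries in 8 groups with no replicates, and the labels name no gene modification or drug. The labels do not give the kind or length of the stress, nor whether a library is 1 dog or a pool. Any p-value computed here therefore measures only the spread between these libraries. The authors' deposited p-values set 1 library against 1 library, so they hold no measure of that spread. The extraction note in the labels names the spleen, but titles and tissue fields name the pituitary and the adrenal cortex. The 4 pituitaries held 14716 to 22898 FPKM of CGA, the shared subunit of the glycoprotein hormones, and the 4 adrenal cortices held 5079 to 7984 FPKM of STAR, which brings cholesterol to steroid synthesis. FPKM is a read count scaled by gene length and library depth, so it can be set side by side between genes.

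Pyramidal neurons of the cerebral cortex release glutamate, which is packed into vesicles by the carrier SLC17A7 and read at the next cell by AMPA receptors (GRIA genes) and NMDA receptors (GRIN genes) held in place by scaffold proteins such as DLG4. Cortical interneurons make GABA with the enzymes GAD1 and GAD2 and are told apart by SST, PVALB, CCK and other markers. The machinery that fuses vesicles with the membrane (SNAP25, STX1A, SYT1) is also used by endocrine cells to release hormones, so anterior pituitary cells and the chromaffin cells of the adrenal medulla carry it too. The posterior pituitary holds axon endings of hypothalamic neurons, but cell bodies of cortical neurons belong to neither gland. In bulk tissue, fewer cells of a type and less RNA per cell cannot be told apart.

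Each library held between 14327357 and 18712035 recovered reads, of which 9.6% to 15.8% fell on its top 10 genes. The stressed Chinese Field Dog pituitary stood apart from the other pituitaries by its neural genes. The summed level of the 34 members was 3024 FPKM in that library, against 430 FPKM in the unexposed Chinese Field Dog pituitary, 454 FPKM in the stressed Beagle pituitary and 439 FPKM in the unexposed Beagle pituitary. The 4 adrenal cortices held 268 to 463 FPKM. As a share of all reads, the members took 0.530% of the stressed Chinese Field Dog pituitary and 0.0397% to 0.0779% of each other library. At least 1 FPKM was reached by 33 members in that library and by 14 to 19 members in each of the other 7. Over all 24580 genes it was reached by 13462 to 14464 in each of the other 7 and by 14622 in the stressed Chinese Field Dog pituitary. That library gave the highest of the 8 values for 30 of the 34 members, and it was above all 3 other pituitaries for 32 of 34. The exceptions were GRIA1 and FEZF2. Such counts describe genes chosen for high values in that library, and the same shares over all genes were not counted.

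**Figure D1:**
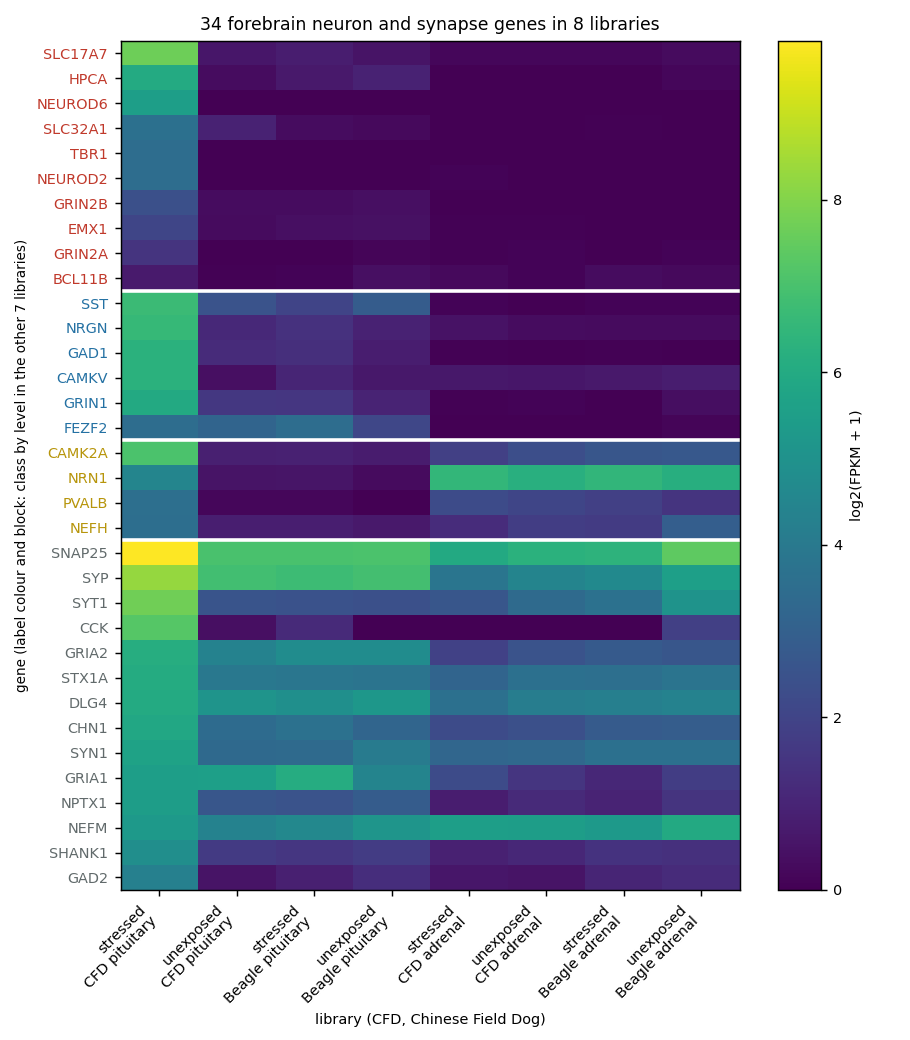
Level of the 34 members (rows) in the 8 libraries (columns), coloured by log2(FPKM + 1), with members grouped by where else they reached 1 FPKM. The first column, the stressed Chinese Field Dog pituitary, is the brightest in 30 of 34 rows, while GRIA1, FEZF2, NEFM and NRN1 are brighter in another library.

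With 1 library a group, the difference between the stressed and the unexposed Chinese Field Dog pituitary has no replicate check and no test. It is also the contrast on which the members were chosen, so the following values are a description. A gene was counted as 2-fold different when log2 of its ratio of FPKM + 1 was at least 1 in size, over genes with a mean of at least 1 FPKM in the pair. By that rule 28 of the 32 members tested were higher and 0 lower, where 7.85% of all genes were higher and 1.7% lower. The median log2 ratio of these members was 3.29, and that of all 14720 genes was -0.03. The 2 members under the mean of 1 FPKM were BCL11B and GRIN2A. The same library set against the stressed Beagle pituitary had 29 of 32 members at least 2-fold higher and 0 lower, with a median of 3.35. Over all genes of that pair 8.73% were higher and 2.39% lower. Both comparisons share the stressed Chinese Field Dog pituitary, so the counts are not independent of each other.

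The transcription factors of cortical projection neurons included the members with the most complete absence elsewhere. NEUROD6, a factor of maturing and adult pyramidal neurons (ENSCAFG00000003122, CanFam3.1 chromosome 14, 43914148 to 43915162), had 45.2 FPKM from 621 reads in the stressed Chinese Field Dog pituitary and 0 reads in each of the other 7 libraries. Against the limit of 3 reads that a count of 0 allows per library, this was at least 226-fold higher than in the unexposed Chinese Field Dog pituitary. TBR1, a factor of deep-layer cortical neurons on chromosome 36 (6989702 to 6997934), had 10.5 FPKM from 365 reads there and 0 reads in each of the other 7. That made it at least 133-fold higher. NEUROD2, a relative of NEUROD6, had 10.4 FPKM from 165 reads there, and its only other read lay in the stressed Chinese Field Dog adrenal cortex. EMX1, a factor of the dorsal forebrain, had 3.11 FPKM there, against at most 0.352 FPKM in any other library. BCL11B, which marks neurons that project to the spinal cord, was at 0.646 FPKM from 15 reads and was therefore under 1 FPKM in all 8 libraries.

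FEZF2, a factor of deep-layer cortical neurons that is also made in the developing hypothalamus, went against the other 5. It had 10.5 FPKM in the stressed Chinese Field Dog pituitary, 7.98 FPKM in the unexposed Chinese Field Dog pituitary, 10.6 FPKM in the stressed Beagle pituitary and 3.27 FPKM in the unexposed Beagle pituitary. The adrenal cortices held 0, 0, 0 and 0.096 FPKM. FEZF2 was thus a gene of all 4 pituitaries, with the stressed Chinese Field Dog library second. Over the 6 factors the median log2 ratio of the stressed to the unexposed Chinese Field Dog pituitary was 2.62 after adding 1 FPKM. Without that addition it was 4.96, with NEUROD6, TBR1 and NEUROD2 set to their bound.

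The genes that make and pack the transmitters were higher in the stressed Chinese Field Dog pituitary for both glutamate and GABA. SLC17A7, which loads glutamate into the vesicles of pyramidal cells (gene ENSCAFG00000003665), had 203 FPKM from 8273 reads in that library. The other pituitaries held 0.518 FPKM in the unexposed Chinese Field Dog, 0.715 FPKM in the stressed Beagle and 0.439 FPKM in the unexposed Beagle. The 4 adrenal cortices held 0.113 to 0.217 FPKM. Its log2 ratio of 7.07 was the widest of the 34 members after adding 1 FPKM. Without that addition it was 8.62, with a 95% counting interval on the reads of 8.03 to 9.28, and CCK was wider at 8.96.

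GAD1, the main GABA-making enzyme (ENSCAFG00000012560, chromosome 36, 15351288 to 15392990), had 77.2 FPKM in the stressed Chinese Field Dog pituitary. It had 1.30, 1.54 and 0.747 FPKM in the unexposed Chinese Field Dog, stressed Beagle and unexposed Beagle pituitaries. At most 0.044 FPKM was found in any adrenal cortex, so the few GAD1 reads outside the stressed library were nearly all pituitary ones. GAD2, the second such enzyme, had 18.6 FPKM in the stressed Chinese Field Dog pituitary and 0.429 to 1.43 FPKM in the other 7. SLC32A1, the vesicular carrier for GABA and glycine, had 11.3 FPKM there and 0.921, 0.261 and 0.189 FPKM in the other pituitaries. All 4 genes of this group were at least 2-fold higher than in the unexposed Chinese Field Dog pituitary, with a median log2 ratio of 4.43.

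The interneuron peptides and parvalbumin differed in what the other libraries held. CCK, cholecystokinin, a peptide of cortical neurons (ENSCAFG00000005246, chromosome 23), had 152 FPKM from 457 reads in the stressed Chinese Field Dog pituitary. The other pituitaries held 1, 4 and 0 reads, and the adrenal cortices held 0, 0, 0 and 7 reads, the last in the unexposed Beagle. The 95% counting interval of its log2 ratio to the unexposed Chinese Field Dog pituitary ran from 6.48 to 14.27, because only 1 read stood on the other side.

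SST, somatostatin, is both an interneuron peptide and the hypothalamic hormone that holds back growth hormone release. It had 103 FPKM in the stressed Chinese Field Dog pituitary, 4.75 FPKM in the unexposed Chinese Field Dog pituitary, 3.05 FPKM in the stressed Beagle pituitary and 6.19 FPKM in the unexposed Beagle pituitary. Each adrenal cortex had 0 or 1 read. SST was therefore present at a few FPKM in every pituitary and many times higher in 1 of them. PVALB, the calcium buffer of fast-spiking interneurons, had 11.0 FPKM from 83 reads in the stressed Chinese Field Dog pituitary and 1, 1 and 0 reads in the other pituitaries. In the adrenal cortices it had 3.81, 3.15, 2.63 and 1.78 FPKM in the stressed Chinese Field Dog, unexposed Chinese Field Dog, stressed Beagle and unexposed Beagle libraries.

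At the receiving side of the glutamate synapse, 8 of the 10 members found had a log2 ratio of at least 1 in the stressed over the unexposed Chinese Field Dog pituitary, GRIN2A among them, which is not in the 28 because its mean was under 1 FPKM. CAMK2A, an abundant kinase of excitatory synapses (ENSCAFG00000018163, chromosome 4, 58800920 to 58865889), had 131 FPKM from 9762 reads in the stressed Chinese Field Dog pituitary. It had 0.837 FPKM in the unexposed Chinese Field Dog, 0.890 FPKM in the stressed Beagle and 0.670 FPKM in the unexposed Beagle pituitary. The adrenal cortices held 2.65, 4.17, 5.27 and 5.58 FPKM, all above these 3 pituitaries. NRGN, neurogranin, a calmodulin-binding protein of dendrites on chromosome 5, had 94.6 FPKM in that library. The other pituitaries held 1.17, 1.62 and 0.938 FPKM, and the adrenal cortices 0.408, 0.250, 0.211 and 0.236 FPKM. CAMKV, a kinase-like protein of synapses without kinase activity, had 76.4 FPKM there and 0.322 to 1.04 FPKM in the other 7.

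The receptor subunits covered a wide range of levels and ratios. GRIN1, the subunit every NMDA receptor needs, had 61.3 FPKM in the stressed Chinese Field Dog pituitary and 2.06, 1.94 and 0.996 FPKM in the other 3 pituitaries. GRIN2B had 4.28 FPKM there, against at most 0.327 FPKM elsewhere. GRIN2A had 1.75 FPKM from 111 reads there, against 0 reads in the unexposed Chinese Field Dog pituitary and at most 6 reads in any other library. GRIA2, the AMPA subunit that limits calcium entry, had 69.6 FPKM there, 19.4 FPKM in the unexposed Chinese Field Dog, 26.3 FPKM in the stressed Beagle and 26.7 FPKM in the unexposed Beagle pituitary. The log2 ratio of GRIA2 was 1.79, against 4.35 for GRIN1, 2.08 for GRIN2B and 1.46 for GRIN2A. GRIA1, the other main AMPA subunit, had 45.2 FPKM in the stressed Chinese Field Dog pituitary, 46.0 FPKM in the unexposed Chinese Field Dog, 68.0 FPKM in the stressed Beagle and 20.6 FPKM in the unexposed Beagle pituitary. It gave the lowest log2 ratio of the 34 members, -0.03, with a counting interval of -0.11 to 0.07.

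The 2 scaffolds of the postsynaptic density also parted. SHANK1, a scaffold found mainly in brain, had 27.8 FPKM in the stressed Chinese Field Dog pituitary and 1.97 to 2.37 FPKM in the other pituitaries. DLG4, which anchors glutamate receptors, had 63.8 FPKM there and 32.8, 29.0 and 36.3 FPKM in the other 3. Its log2 ratio to the unexposed Chinese Field Dog pituitary was 0.94, just under the 2-fold limit, while that to the stressed Beagle pituitary was 1.11, just over it.

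SNAP25 and SYP were the 2 most abundant members in every pituitary, and all 5 vesicle and release genes found were at least 2-fold higher in the stressed Chinese Field Dog pituitary than in the unexposed one. SNAP25, a membrane-side fusion protein (ENSCAFG00000005662, chromosome 24, 12004232 to 12028750), had 919 FPKM in the stressed Chinese Field Dog pituitary. The unexposed Chinese Field Dog, stressed Beagle and unexposed Beagle pituitaries held 127, 129 and 134 FPKM. The adrenal cortices held 62.5, 76.1, 81.5 and 170 FPKM, the last in the unexposed Beagle. SYP, synaptophysin, a protein of the vesicle membrane on chromosome X, had 313 FPKM in the stressed Chinese Field Dog pituitary and 116, 106 and 119 FPKM in the other pituitaries. Its adrenal levels were 13.2, 20.7, 24.6 and 46.5 FPKM. For both genes the 3 other pituitaries lay close to each other and above nearly all adrenal cortices, SNAP25 of the unexposed Beagle being the exception.

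SYT1, the calcium sensor of fast release, had 207 FPKM from 14907 reads in the stressed Chinese Field Dog pituitary. It had 4.95, 4.54 and 4.24 FPKM in the other pituitaries and 5.14, 9.50, 11.6 and 32.3 FPKM in the adrenal cortices. Its log2 ratio of 5.12 was the highest of the 5 release genes, whose median was 2.32. STX1A, the syntaxin partner of SNAP25, had 66.4 FPKM in the stressed Chinese Field Dog pituitary and 12.8 to 14.2 FPKM in the other 3. SYN1, which tethers vesicles, had 50.2 FPKM there and 9.24, 9.53 and 16.2 FPKM in the other 3.

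The neurofilaments, structural proteins of axons, followed no common order. NEFM (ENSCAFG00000009019, chromosome 25, 32493476 to 32498570) had 38.5 FPKM in the stressed Chinese Field Dog pituitary, against 19.5, 23.5 and 34.3 FPKM in the other pituitaries. The adrenal cortices held 45.3, 43.8, 38.1 and 62.0 FPKM, so that 3 of the 4 were above the stressed Chinese Field Dog pituitary. NEFH had 10.9 FPKM in that pituitary, 0.783, 0.760 and 0.603 FPKM in the other pituitaries, and 1.38, 2.46, 2.28 and 6.73 FPKM in the adrenal cortices. NEFH was thus more than 2-fold higher than in the unexposed Chinese Field Dog pituitary, with a log2 ratio of 2.74, and NEFM was just under 2-fold with 0.95.

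All 4 remaining members, a calcium sensor and 3 genes of synapse formation and outgrowth, were at least 2-fold higher. HPCA, hippocalcin, a calcium sensor of hippocampal and cortical neurons on chromosome 2, had 63.3 FPKM from 1178 reads in the stressed Chinese Field Dog pituitary. The other pituitaries held 0.246, 0.590 and 0.913 FPKM, and the adrenal cortices 0, 0, 0 and 0.119 FPKM. CHN1, a Rac-regulating protein of axon guidance, had 58.8 FPKM there, 9.91, 11.7 and 8.20 FPKM in the other pituitaries, and 3.72, 4.31, 6.19 and 6.39 FPKM in the adrenal cortices. HPCA was nearly absent outside that library, while CHN1 was found in all 8. NPTX1, a pentraxin that gathers AMPA receptors, had 43.9 FPKM there and 5.18, 4.66 and 6.23 FPKM in the other pituitaries. NRN1, neuritin, an outgrowth factor, had 21.6 FPKM in the stressed Chinese Field Dog pituitary and 0.419, 0.455 and 0.235 FPKM in the other pituitaries. The adrenal cortices held more NRN1 than any pituitary, with 91.7, 74.0, 88.7 and 71.0 FPKM.

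**Figure D2:**
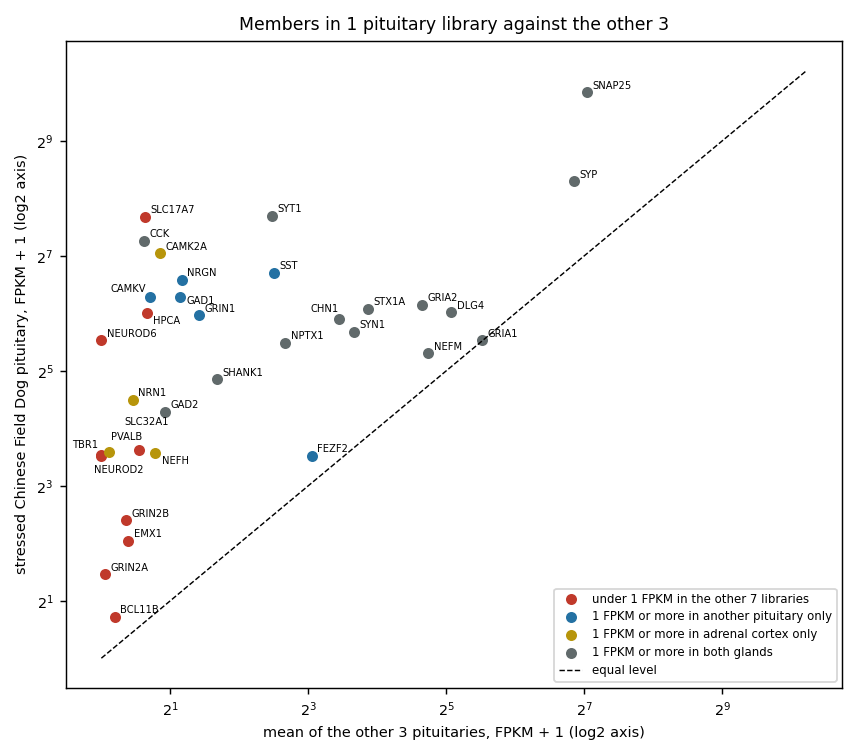
Level of each member in the stressed Chinese Field Dog pituitary (vertical) against its mean in the other 3 pituitaries (horizontal), both as FPKM + 1 on log2 axes, coloured by where else the member reached 1 FPKM, with a dashed line of equal level. All points lie on or above the line, and GRIA1 and FEZF2 lie nearest to it.

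Members low outside the stressed Chinese Field Dog pituitary were separated from members that the glands also express by their level in the other 7 libraries. The series holds no brain library, so this rule cannot show that a gene is specific to the cortex. Under 1 FPKM in each of the 7 were 10 of the 34 members: SLC17A7, NEUROD6, NEUROD2, TBR1, BCL11B, EMX1, SLC32A1, GRIN2A, GRIN2B and HPCA. No library but the stressed Chinese Field Dog pituitary held more than 35 reads of any of them. Their summed level was 354 FPKM in that library and 0.323 to 2.62 FPKM in each of the other 7. Low levels were common, since 13462 to 14464 of all 24580 genes reached 1 FPKM in each of these 7 libraries. The share of all genes in this class or in those below was not counted, so these counts have no background beside them. The limit was close to some members, since SLC32A1 reached 0.921 FPKM in the unexposed Chinese Field Dog pituitary, just inside, and CAMKV reached 1.04 FPKM in the stressed Beagle pituitary, just outside. A stricter rule of at most 3 reads in each of the 7 libraries left NEUROD6, TBR1 and NEUROD2.

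Another 6 members reached 1 FPKM in another pituitary and in no adrenal cortex: CAMKV, FEZF2, SST, GAD1, GRIN1 and NRGN. CAMK2A, PVALB, NEFH and NRN1 reached it in adrenal cortex and in no other pituitary. The largest class held the 14 members that reached it in both glands: CCK, GAD2, GRIA1, GRIA2, DLG4, SHANK1, SYN1, SYP, SNAP25, SYT1, STX1A, NEFM, NPTX1 and CHN1. CCK entered that class on 4 reads in the stressed Beagle pituitary and 7 reads in the unexposed Beagle adrenal cortex.

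The classes differed in ratio and in amount. The median log2 ratio of the stressed to the unexposed Chinese Field Dog pituitary was, after adding 1 FPKM, 3.09 for the 10 members under 1 FPKM elsewhere. It was 4.72 for the 6 found in other pituitaries, 3.70 for the 4 found in adrenal cortex and 2.39 for the 14 found in both glands. Without that addition the medians were 5.62, with the 4 members at 0 reads in the unexposed library set to their bound, and 5.39, 6.09 and 2.51 for the other classes. As an amount, the excess over the mean of the other 3 pituitaries had a median of 10.5 FPKM, 75.9 FPKM, 16.1 FPKM and 42.0 FPKM in these 4 classes. So the 14 members of both glands had the lowest median ratio on both scales. Their excess in FPKM was larger than that of the 10 members under 1 FPKM elsewhere. The classes were set by levels that include the unexposed Chinese Field Dog pituitary, which is also the base of the ratio. Part of this order of ratios is therefore built in, and it was not tested.

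**Figure D3:**
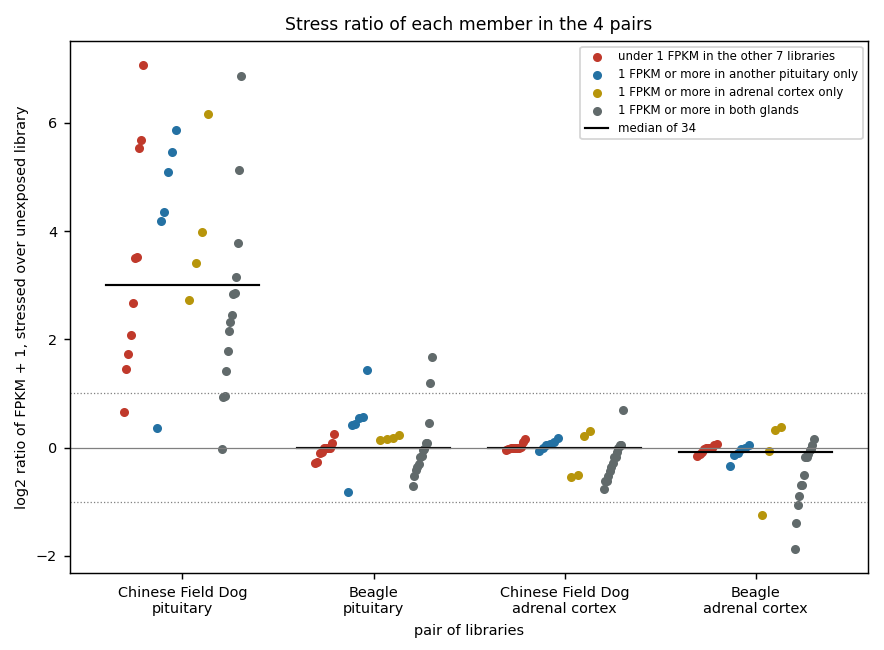
Log2 ratio of FPKM + 1, stressed over unexposed (vertical), for all 34 members in the 4 pairs of libraries that share breed and gland, with their median as a line, dotted lines at 1 and -1, and colours by where else the member reached 1 FPKM. Points of the Chinese Field Dog pituitary pair reach up to 7.07, while those of the other 3 pairs lie between -1.88 (CCK in the Beagle adrenal cortex) and 1.67 (GRIA1 in the Beagle pituitary).

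The stress comparison was then made in the 3 pairs that do not hold the stressed Chinese Field Dog pituitary. In the Beagle pituitary 2 of 18 members tested were at least 2-fold higher and 0 lower, against 1.26% and 1.09% of all genes, with a median log2 ratio of -0.04. The 2 were GRIA1, with 68.0 FPKM in the stressed and 20.6 FPKM in the unexposed Beagle pituitary, and FEZF2, with 10.6 FPKM and 3.27 FPKM. These are the 2 members for which the stressed Chinese Field Dog pituitary was not above all other pituitaries. In the Chinese Field Dog adrenal cortex 0 of 15 members tested were 2-fold higher and 0 lower, against 0.99% and 1.03% of all genes. The median was -0.28, with 11 of the 15 below 0.

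In the Beagle adrenal cortex 0 of 18 members tested were at least 2-fold higher and 4 were lower, against 0.83% and 2.45% of all genes. SYT1 had 11.6 FPKM in the stressed and 32.3 FPKM in the unexposed Beagle adrenal cortex, with a log2 ratio of -1.40 after adding 1 FPKM. The counting interval on the reads, without that addition, was -1.59 to -1.35. NEFH had 2.28 FPKM in the stressed and 6.73 FPKM in the unexposed library, and SNAP25 had 81.5 FPKM and 170 FPKM. CCK, the last of the 4, had 0 reads and 7 reads. The unexposed Beagle adrenal cortex was the library that stood high, since it had the highest adrenal value of SYT1, SNAP25, SYP, NEFM and NEFH. Genes of the adrenal medulla were lower beside these members. In the same pair, 9 of 10 medulla and granule genes were below 0 with a median of -0.63, and their summed level was 4914 FPKM in the stressed and 5822 FPKM in the unexposed Beagle adrenal cortex. TH, the first enzyme of catecholamine synthesis, had 142 FPKM and 255 FPKM, and DBH, a later one, had 467 FPKM and 758 FPKM. The part of the medulla genes in these 4 members was not tested.

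Limma, a linear model fitted across all genes, tested these 3 ratios together and made no call among the 18 members with a mean of at least 1 FPKM. The lowest adjusted p of limma was 0.723, with a Benjamini-Hochberg threshold of 0.05, and 2 of all 14493 genes (0.0138%) were called. At an unadjusted p under 0.05 stood 4 of the 18 members (NPTX1, NRN1, SYP and DLG4) and 6.53% of all genes. EdgeR and DESeq2 on recovered reads also called 0 members, where over all genes edgeR called 0 of 15644 and DESeq2 46 of 19403. The lowest p belonged to NPTX1, with a limma log2 difference of -0.41 (SE 0.09) and lower values in the stressed library in 3 of 3 pairs. Of the 18 differences 13 were below 0, with a median of -0.21 against 0.00 over all genes. With 3 pairs the fit had 2 residual degrees of freedom, so a missing call does not show that a member stayed level.

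Breed was compared in the same way, Chinese Field Dog over Beagle, in the 3 pairs without the stressed Chinese Field Dog pituitary. Limma called 0 of 18 members and 0% of all 14509 genes, with a lowest adjusted p of 0.405 among the members. At an unadjusted p under 0.05 stood 4 members (SYN1, PVALB, GRIA2 and SYP) and 10.6% of all genes. EdgeR called 98 genes and DESeq2 313 genes, and neither called a member. SYN1 gave the lowest p, with a limma log2 difference of -0.48 (SE 0.13) and lower values in the Chinese Field Dog in 3 of 3 pairs. The median of the 18 was -0.31, with 14 below 0, against -0.02 over all genes. The stress and the breed comparison share all 4 adrenal cortices and the unexposed Beagle pituitary, so they are not independent of each other.

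The gland comparison used none of the library on which the members were chosen and set the other 3 pituitaries against the 4 adrenal cortices. Limma called 14 of the 18 members tested, 9 higher and 5 lower in pituitary. Over all genes it called 63.7%, with 31.1% higher and 32.6% lower, so the members' 14 of 18 stood beside a background in which most genes differed between the glands. The other 16 members did not reach a mean of 1 FPKM over the 7 libraries.

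NRN1 had the lowest adjusted p. It was at 0.419, 0.455 and 0.235 FPKM in the 3 pituitaries and at 71.0 to 91.7 FPKM in the adrenal cortices, with a limma log2 difference of -5.91 (SE 0.12, adjusted p 1.6e-07). By limma, the adjusted p of the other 13 called members ran from 3.32e-05 to 0.0272. The AMPA subunits were higher in the 3 pituitaries, GRIA1 by a log2 of 3.71 (SE 0.43) and GRIA2 by 2.18 (SE 0.23). FEZF2 was higher by 2.90 (SE 0.31) and SST by 2.40 (SE 0.18), in each case with all 3 pituitaries above all 4 adrenal cortices. SYP, NPTX1, DLG4, CHN1 and SHANK1 were also higher in pituitary, by a log2 of 2.21, 1.56, 0.96, 0.84 and 0.47. Lower in pituitary besides NRN1 were PVALB, CAMK2A, NEFH and NEFM, with log2 differences of -1.80, -1.56, -1.15 and -0.87.

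The core release genes were not called. SNAP25 differed by 0.52 (SE 0.32, adjusted p 0.188 by limma), STX1A by 0.32 (SE 0.14, adjusted p 0.0925 by limma) and SYN1 by 0.16 (SE 0.21, adjusted p 0.530 by limma). SYT1 was at -1.20 (SE 0.51, adjusted p 0.0737 by limma), with all 3 pituitaries below all 4 adrenal cortices. Without the unexposed Beagle adrenal cortex, limma called SNAP25, STX1A and SYT1 as well, and without the stressed Chinese Field Dog adrenal cortex it called SYT1. SHANK1 lost its limma call without the unexposed Chinese Field Dog pituitary (adjusted p 0.0622), the unexposed Beagle pituitary (0.0728) or the unexposed Chinese Field Dog adrenal cortex (0.0559). NEFH lost its limma call when any 1 of the 3 pituitaries was left out, the unexposed Chinese Field Dog (adjusted p 0.0616), the stressed Beagle (0.0655) or the unexposed Beagle (0.0760).

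**Figure D4:**
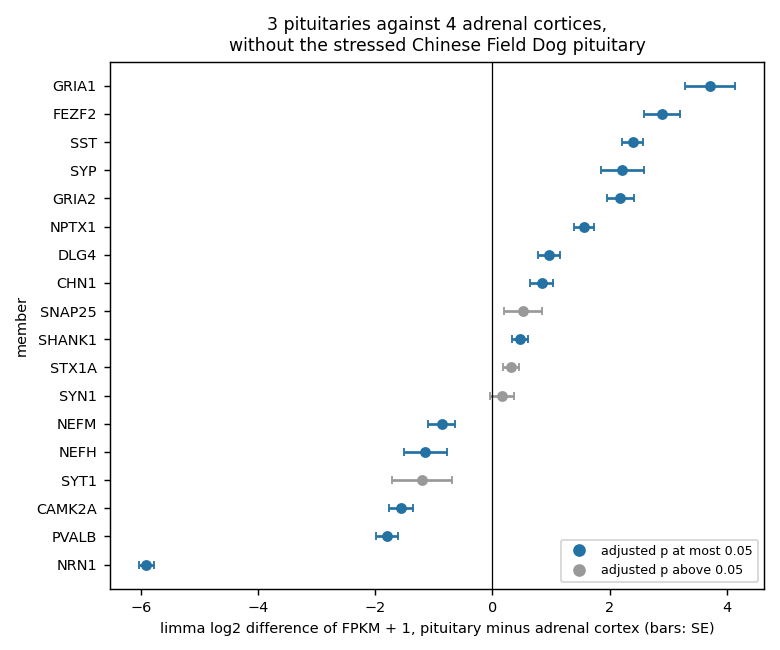
Limma log2 difference of FPKM + 1, 3 pituitaries over 4 adrenal cortices, for the 18 members tested, with the standard error as a bar and members with an adjusted p above 0.05 in grey. NRN1 at -5.91 and GRIA1 at 3.71 are the ends of the range, and SYN1 at 0.16 lies nearest to 0.

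Further neural genes, which were not members, were grouped by brain region and cell type in the Chinese Field Dog pituitary pair. Over all genes of that pair 7.85% were at least 2-fold higher in the stressed library and 1.7% lower. Other cortex neuron genes had 7 of 12 tested at least 2-fold higher in the stressed library and 0 lower, with a median log2 ratio of 1.54. MEF2C, an activity-regulated factor, had 58.5 FPKM in the stressed and 6.98 FPKM in the unexposed Chinese Field Dog pituitary, and LAMP5, an interneuron and upper-layer gene, had 53.1 FPKM and 0 FPKM. TLE4, a deep-layer corepressor that many tissues make, had 21.9 FPKM and 18.8 FPKM. Interneuron genes had 7 of 9 higher and 0 lower, with a median of 2.43. Among these were TAC1, the substance P precursor, with 121 FPKM and 0.664 FPKM, NPY with 114 FPKM and 7.55 FPKM, and CALB2 with 23.1 FPKM and 2.58 FPKM. Other pan-neuronal and synapse genes had 17 of 22 higher and 0 lower, with a median of 1.81, led by level by STMN2 (269 FPKM and 109 FPKM), GAP43 (228 FPKM and 36.0 FPKM) and SNCB (194 FPKM and 31.3 FPKM).

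Lists of other brain regions were counted in the same way. Of 7 striatum genes 0 were 2-fold higher or lower, with a median of 0.16, and the dopamine receptor DRD1 had 3.95 FPKM in the stressed and 1.69 FPKM in the unexposed Chinese Field Dog pituitary. Of 4 hypothalamus genes tested 2 were higher (TRH and CRH) and 1 lower (OXT). In the stressed and the unexposed library, AVP had 21.4 FPKM and 39.2 FPKM, and OXT 12.5 FPKM and 55.7 FPKM. TRH had 10.5 FPKM and 0.097 FPKM. HCRT, PMCH, AGRP, SIM1 and OTP, genes of hypothalamic neurons, were under 1 FPKM in the stressed Chinese Field Dog pituitary. Of 3 cerebellum genes tested 0 were 2-fold higher or lower, with a median of 0.38. In the stressed and the unexposed library, CALB1 had 19.0 FPKM and 14.4 FPKM, and ZIC2 1.68 FPKM and 0.823 FPKM. PCP2 had 1.25 FPKM and 1.60 FPKM. GABRA6, BARHL1 and EN2 had 0 reads in the stressed Chinese Field Dog pituitary. All 10 midbrain and hindbrain genes found were under 1 FPKM in that library, and HOXC6 and HOXB5 had 0 reads.

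Glial genes stood beside the members. Of 11 astrocyte and oligodendrocyte genes 8 were at least 2-fold higher in the stressed than in the unexposed Chinese Field Dog pituitary and 1 was lower, with a median of 1.70 and a summed level of 703 FPKM and 146 FPKM. GFAP, an astrocyte filament, had 163 FPKM and 8.40 FPKM. SLC1A2, the glutamate uptake carrier of astrocytes, had 108 FPKM and 2.35 FPKM, and MBP, a myelin protein, had 271 FPKM and 73.3 FPKM. ALDH1L1, also an astrocyte gene, was the one lower, with 7.29 FPKM and 18.7 FPKM. Of 5 microglia genes 1 was higher, P2RY12, and 0 lower, with a median of 0.07 and a summed level of 50.7 FPKM and 47.6 FPKM.

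Genes of pituitary endocrine cells were mostly lower in the same pair. Of 13 such genes 12 were below 0 and 2 at least 2-fold lower, with a median of -0.59. POMC, the precursor of the hormone that drives the adrenal cortex, had 10147 FPKM in the stressed and 30314 FPKM in the unexposed Chinese Field Dog pituitary. TSHB, the thyrotropin subunit, had 203 FPKM and 413 FPKM, and GH1, growth hormone, had 81835 FPKM and 78999 FPKM. In the Beagle, GH1 had 73846 FPKM in the stressed and 0 FPKM in the unexposed pituitary. Whether a 0 in these values always means absence was not tested. The summed level of the 13 was 123840 FPKM in the stressed and 157900 FPKM in the unexposed Chinese Field Dog pituitary. Of 6 medulla and granule genes tested 0 were 2-fold higher or lower, with a median of -0.23, and of 3 adrenal cortex genes 0, with a median of 0.04. The part of glial, other neuronal and endocrine genes in the members' values was not tested, and with 1 library a group, exposure and the dog sampled cannot be told apart.

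**Figure D5:**
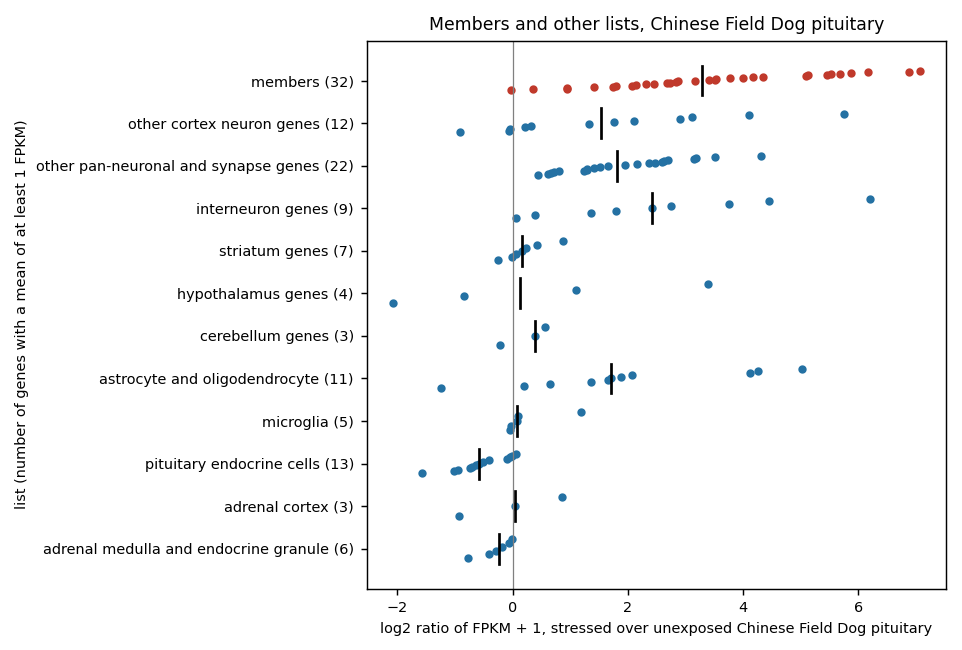
Log2 ratio of FPKM + 1, stressed over unexposed Chinese Field Dog pituitary, for each gene with a mean of at least 1 FPKM in the pair (points), by list (members above, then other neural and marker lists), with the median as a line. Medians are highest for the members (3.29) and interneuron genes (2.43), near 0 for microglia (0.07) and below 0 for pituitary endocrine genes (-0.59).

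The authors' deposited table gave its own p-values for the 2 pairs, though each side held 1 library. For the stressed against the unexposed Chinese Field Dog pituitary, the authors' deposited table had 20 of the 34 members at p of 0.05 or less, out of 349 genes in all, and 5 at a false discovery rate of 0.05 or less, out of 15 genes in all. The 5 were NEUROD6, NEUROD2, TBR1, GRIN2A and SYT1. This is the contrast on which the members were chosen, so these counts are a description. For the stressed Chinese Field Dog against the stressed Beagle pituitary, the authors' deposited table had 20 members at that p, out of 378 genes in all, and 4 at that rate (the same without GRIN2A), out of 22 genes. SLC17A7 was in neither set of calls at that rate.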

How the data were processed

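Libraries were made with the TruSeq kit from total RNA and sequenced on an Illumina Genome Analyzer IIx, per the labels' protocols. Reads were aligned with TopHat to CanFam3.1, per the submitters' processing notes, with the counting program not given in the sources used here. The 8 deposited tables each hold 2 libraries with an FPKM value and a scaled count (a signal per gene, read counts divided by a size factor) from the authors, and the authors' own p-values. Dividing by each library's step recovered reads, with 99.6% to 99.7% of low values whole within 0.1. The step was near 1 in the stressed Chinese Field Dog pituitary and in the stressed Beagle adrenal cortex, so the reads given for these 2 libraries are approximate.

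Members, gene lists, thresholds and tests were chosen with earlier results of these data known. Pairs of libraries were compared as log2(FPKM + 1), which understates ratios of low genes, over genes with a mean of at least 1 FPKM. Intervals are 95% Clopper-Pearson intervals on reads and cover counting error only, and 0 reads were taken to allow up to 3. Limma 3.58.1 in R 4.3.3 tested log2(FPKM + 1), with libraries of other breed and exposure serving as replicates of the gland, and with intercept-only fits of 3 within-breed or within-exposure ratios for stress and breed. The p-values of each fit were Benjamini-Hochberg adjusted over every gene tested. EdgeR 4.0.16 (quasi-likelihood) and DESeq2 1.42.0 on recovered reads, other pseudocounts and filters, and leaving out each library or pair were the alternatives. The main limma fits and the edgeR and DESeq2 fits were tested on simulated data, the other alternatives were not. Of 50 genes changed 2-fold, limma recovered 16 for gland, 7 for stress and 11 for breed. Of 50 changed 4-fold it recovered 50, 47 and 50. The changed genes were drawn from well-expressed genes only, at a simulated dispersion of 0.05 and with no other effect of breed, gland or exposure. Recovery of changes in members with low levels was therefore not tested. Values in every library were planned for the 2 members of each role group with the highest level in the stressed Chinese Field Dog pituitary. They were also planned for the extremes of ratio and for the lowest limma p. Of these members, SLC17A7, GAD1 and SST had their adrenal values summarised, and GRIA1, NPTX1 and SYN1 had no adrenal values given. Other members were given mostly by range. The 3 genes with the highest level there were named for the neural lists except striatum and except midbrain and hindbrain. The same was done for the astrocyte and oligodendrocyte list. Other genes of these and of the remaining lists were named after their values were seen. DRD1 was the only striatum gene named, and it had the widest ratio of that list but not one of its highest levels. No sequence is printed, as no sequence table was used here.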

Additional observations from a re-analysis of the deposited data

How the results depend on the processing

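The count of members at least 2-fold higher in the stressed Chinese Field Dog pituitary ran from 26 to 30 over other pseudocounts, filters and TMM scaling, against the unexposed Chinese Field Dog or the stressed Beagle pituitary. TMM moved the median of all genes by at most 0.04 (log2). The 10 members under 1 FPKM elsewhere became 7 at a limit of 0.5 FPKM, 14 at 2 FPKM, and 3 at no more than 3 reads per library. The 14 of 18 members called between the glands became 22 of 32 without a filter and 23 of 32 by DESeq2. Over all genes these 2 fits called 10393 of 19555 and 10297 of 19554. With all 8 libraries 9 of 30 members were called, and PVALB, SHANK1, NEFH, CAMK2A and CHN1 lost their call. That last fit holds the library on which members were chosen, tested 30 members instead of 18 and called 8924 of 14808 genes. Leaving out 1 library gave 12 to 17 calls among 18 members, and exposure and breed as covariates gave 15 of 18. EdgeR called 21 of 26 members and 10066 of 15462 genes. SYT1 was called by edgeR, by DESeq2 and with these covariates. Without pairing (no replicate block), stress had 0 and breed 0 members called. SYT1 stood at 0.10 with all 8 libraries, against -1.20 without the stressed Chinese Field Dog pituitary. None of the 14 members called turned direction under the alternatives run. With 1 library a group, counting intervals say nothing of the spread between dogs, and members with few reads in the other libraries have wide ones.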
